A study of Mus musculus with 24 samples.

Results

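The Id inhibitors and the basic helix-loop-helix (bHLH) factors that they meet in muscle cells were followed in C2C12, an established and clonal mouse myoblast line that fuses into myotubes when serum is lowered. The set was named by gene symbol and holds 9 of the 48544 genes listed: the inhibitors Id1, Id2, Id3 and Id4, the E proteins Tcf3, Tcf4 and Tcf12, and the bHLH repressors Twist1 and Msc. All 9 were found under their Ensembl identifiers, and 8 passed the filter on low values and were tested. Here Tcf3 is the gene of E12 and E47 and Tcf4 that of E2-2; the factors of Wnt signalling that share these older names are other genes. Polyadenylated RNA was sequenced in 24 libraries, 4 for each of 6 groups, all of the wild-type line. Day 0 myoblasts were taken near confluence in 10% serum, and every other group was kept in 2% serum. Day 7 myotubes had differentiated for 7 days. From day 7, myotubes received 100 µM dexamethasone, a synthetic glucocorticoid used to induce atrophy, or vehicle medium with 1% ethanol, and were collected after 24 h (day 8) or 72 h (day 10). The labels give ethanol for the vehicle medium only. Nothing in them ties the replicates to independent cultures, and p-values therefore rest on a spread that may be technical. Serum and differentiation changed together and cannot be told apart.

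Muscle regulatory factors such as MyoD and myogenin bind DNA as pairs with an E protein, at a short site called the E-box. Id proteins have the helix-loop-helix that makes the pair but no basic region to touch DNA, so they hold E proteins in pairs that cannot bind. Id genes are classical targets of BMP signalling through SMAD proteins, and their RNA is known to fall when myoblasts leave the cell cycle. Msc (musculin, also MyoR) and Twist1 are bHLH proteins with a basic region that are known to oppose MyoD in undifferentiated cells.

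Levels are in TPM, a share of all transcripts that is scaled by transcript length and can be compared between genes. The sequencing depth is unknown, so no counting interval can be given. Differences are on the log2 scale of the authors' normalised table, where they were smaller than the log2 of the TPM folds for the members that were called. Each was tested with limma over 16257 genes and given with its standard error (SE), and an adjusted p below 0.05 is a call. Folds are ratios of mean TPM. In these cultures a change in the share of fused and unfused cells and a change in RNA per cell cannot be told apart.

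Markers of myotubes and of cycling myoblasts moved as the labels of day 0 and day 7 name these cells. All 8 myotube markers were called higher at day 7 than at day 0, and all 8 markers of cycling myoblasts were lower. Of all tested genes 60.3% were called (30.5% higher, 29.8% lower). Of 8 fibroblast markers 5 were higher and none lower. Their summed level was 2380 to 3320 TPM at day 7 and 1020 to 1480 TPM at day 0. The summed level of the cycling markers was 1100 to 1230 TPM at day 0, 80.9 to 248 TPM at day 7, 16.9 to 75.5 TPM in the vehicle groups, 21.3 to 36.6 TPM with dexamethasone at 24 h and 182 to 490 TPM at 72 h. The glucocorticoid receptor target Fkbp5 was at 126 to 204 TPM in the libraries with dexamethasone at 24 h and at 7.49 to 11.7 TPM in their vehicle libraries. At 72 h the libraries numbered 1 stood apart. Among 24 genes below 0.5 TPM in the other vehicle 72 h libraries and at 2 TPM or more in every dexamethasone 72 h library, vehicle 72 h replicate 1 held a median of 15.5% of the level in its dexamethasone partner. In the reverse direction, over 15 genes, dexamethasone 72 h replicate 1 held 20.0%. By the same measure vehicle 72 h replicate 2 held 5.35% over 8 genes, and each remaining 72 h library 0.613% or less, over 3 to 5 genes. The cause was not tested. Calls of members at 72 h are therefore also given without both replicate 1 libraries (n = 3 and 3). Vehicle 72 h replicate 2 was kept there.

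Upstream sequence was read for the Id genes, because Id3 and Id4 rose with dexamethasone while Id2 was not called. RefSeq promoter windows (build GRCm38.p6) matched 6 members; Id1, Tcf4 and Msc are named only. The 250 bases before the annotated start follow, 5′ to 3′ on the gene's strand, for Id2 (chr12:25096093-25096342, minus strand), Id3 (chr4:136143572-136143821, plus strand) and Id4 (chr13:48260866-48261115, plus strand), with capitals marking matches to the motifs named after them.
Id2: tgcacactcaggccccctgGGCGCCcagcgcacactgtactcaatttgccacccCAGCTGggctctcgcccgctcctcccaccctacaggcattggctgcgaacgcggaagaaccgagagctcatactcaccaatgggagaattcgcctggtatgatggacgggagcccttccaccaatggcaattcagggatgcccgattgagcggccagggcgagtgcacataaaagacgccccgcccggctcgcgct
Id3: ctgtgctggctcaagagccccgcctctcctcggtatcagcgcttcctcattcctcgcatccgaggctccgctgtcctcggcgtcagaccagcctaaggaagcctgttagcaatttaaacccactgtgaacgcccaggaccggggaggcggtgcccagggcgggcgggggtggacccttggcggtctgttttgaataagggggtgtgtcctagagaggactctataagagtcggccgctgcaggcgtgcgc
Id4: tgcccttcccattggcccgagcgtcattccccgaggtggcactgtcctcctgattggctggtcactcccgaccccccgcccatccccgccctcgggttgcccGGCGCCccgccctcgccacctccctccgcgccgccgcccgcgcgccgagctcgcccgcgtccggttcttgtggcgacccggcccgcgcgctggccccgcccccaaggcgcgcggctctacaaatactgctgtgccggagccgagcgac
Both strands were searched for the E-box CANNTG, the GC-rich SMAD element GGCGCC and the glucocorticoid receptor half-site AGAACA, and no match overlapped another. The Id2 window held 1 E-box, CAGCTG, starting 196 bases before the start, and 1 GC-rich element 231 bases before it. The Id4 window held 1 GC-rich element at 148 bases, and the Id3 window matched none of the motifs. Among the windows of members only that of Tcf3 held the receptor half-site, read as TGTTCT, 188 bases before the start. The Tcf3 window also held an E-box at 54 bases. Different Tcf12 windows held E-boxes at 240 and 149 bases, while another Tcf12 window and the Twist1 window matched none. Of 32851 RefSeq windows of this length, 66.2% held the E-box, 9.59% the GC-rich element and 16.1% the receptor half-site. GC content was 62.8% for Id2 and for Id3 and 75.6% for Id4, against a median of 52.4% over all windows. These matches describe letters only.

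Across the comparisons the members moved in different directions. From day 0 to day 7, 6 of the 8 tested members fell and 1 rose, where 60.3% of all tested genes were called (30.5% higher, 29.8% lower). With dexamethasone at 24 h, 3 rose and 1 fell, against 25.4% of all genes called (13.2% higher, 12.2% lower). At 72 h, 2 rose and 2 fell, against 30.3% called (15.2% higher and 15.2% lower). Without both replicate 1 libraries at 72 h, 2 of the members rose and 3 fell, against 30.7% of all genes (15.1% higher, 15.7% lower). The response at 72 h differed from that at 24 h for 2 members, both shifted downward, against 11.3% of all genes (5.56% higher, 5.77% lower). The median difference of the 8 was −0.66 for differentiation, −0.05 and −0.10 for dexamethasone at 24 h and 72 h and −0.18 for the change between them, beside medians over all tested genes of 0.015, −0.0080, 0.0056 and −0.0048.

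**Figure D1:**
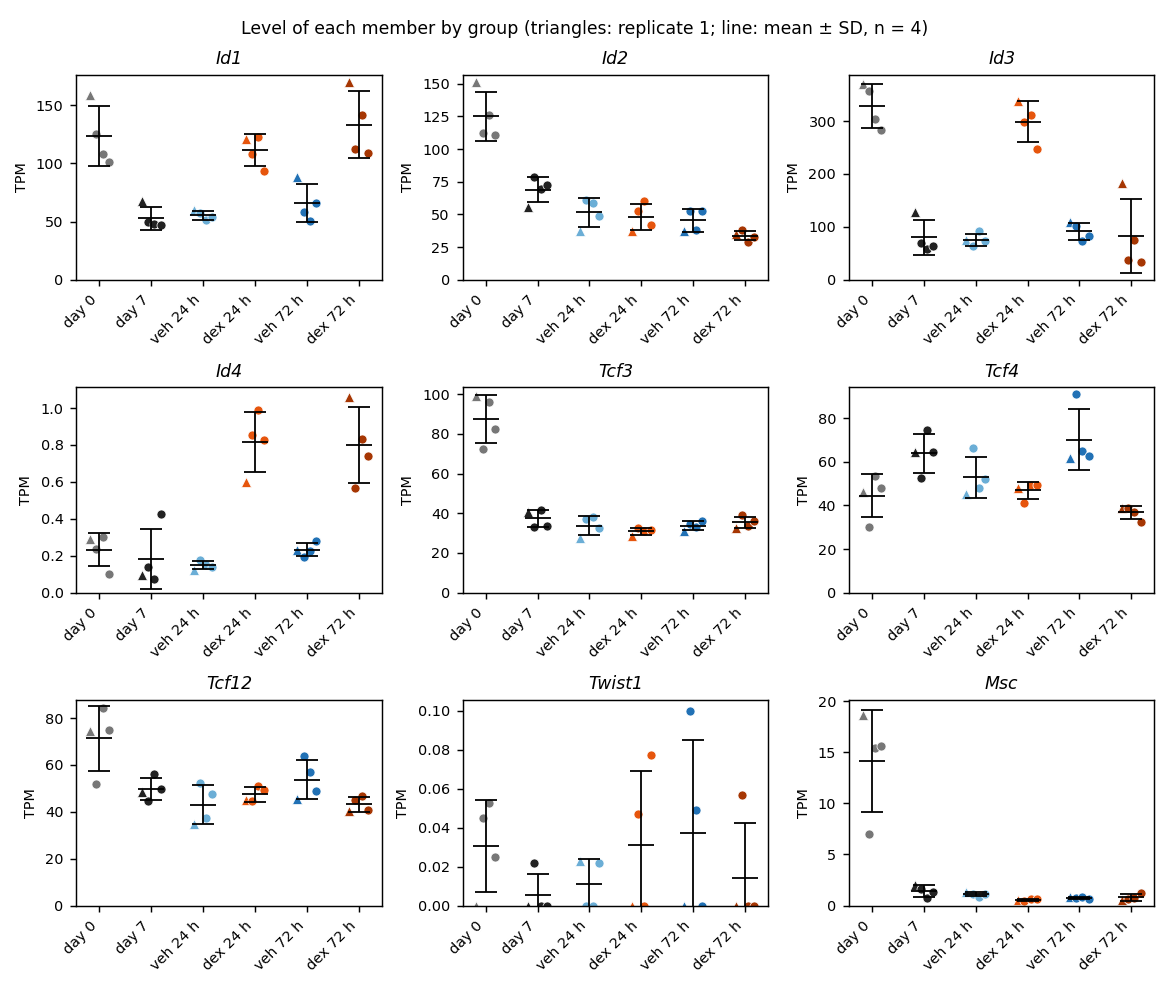
TPM of each member (vertical axis, from 0) in the 6 groups of 4 libraries (horizontal axis); points are libraries, triangles are replicate 1, and the line and bars are the mean ± SD. Id3 is high at day 0 and with dexamethasone at 24 h, Id1 at day 0 and with dexamethasone at both times, and Id4 with dexamethasone at both times.

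Id3, an inhibitor abundant in proliferating myoblasts, had the highest TPM of the Id genes at day 0. At day 0 its 4 libraries held 370, 357, 303 and 283 TPM, and at day 7 they held 129, 69.6, 58.9 and 63.6 TPM. All day 7 libraries lay below all day 0 libraries, with replicate 1 the highest of its group. Mean Id3 was 328 ± 41.7 TPM (SD, n = 4) against 80.3 ± 32.8, a 4.09-fold fall (log2 difference −1.41, SE 0.24, limma adjusted p = 2.74e-05). With dexamethasone at 24 h Id3 stood at 338, 298, 312 and 247 TPM, beside 74.3, 64.3, 91.6 and 74.1 TPM with vehicle. The groups did not overlap, and the treated libraries reached into the range of day 0 myoblasts. The rise was 3.93-fold (log2 difference 1.31, SE 0.24, limma adjusted p = 0.000399), higher in 4 of 4 same-numbered pairs.

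At 72 h Id3 was not called higher. Dexamethasone libraries held 183, 37.6, 74.4 and 33.2 TPM and vehicle libraries 109, 101, 72.8 and 82.8 TPM. Replicate 1 of the dexamethasone group was above every vehicle library, while the other libraries of that group lay near or below the lowest vehicle value. With all libraries the difference was −0.28 (SE 0.24, limma adjusted p = 0.42). Without both replicate 1 libraries Id3 was at 48.4 ± 22.6 TPM with dexamethasone and 85.5 ± 14.2 TPM with vehicle, and the difference passed as a fall (−0.55, limma adjusted p = 0.026). Over 16 alternatives the adjusted p ran from 0.00731 to 0.848, and it was below 0.05 in the 3 that left out dexamethasone 72 h replicate 1. The Id3 level of that library, 183 TPM, was above the 109 TPM of its vehicle partner. Why that library differed from the others of its group was not tested. The test of the change itself passed: the 72 h response was lower than the 24 h response by 1.58 on the log2 scale (difference −1.58, SE 0.34, limma adjusted p = 0.00393), and it was called in all 24 alternatives run.

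Id1, which restrains differentiation in many cell types, was called higher with dexamethasone at both times. Day 0 libraries held 159, 125, 108 and 101 TPM and day 7 libraries 67.7, 49.3, 47.6 and 47.1 TPM, with no overlap, a 2.33-fold fall (log2 difference −0.77, SE 0.13, limma adjusted p = 2.37e-05). At 24 h Id1 was at 121, 108, 123 and 93.1 TPM with dexamethasone and at 59.9, 57.2, 51.2 and 53.6 TPM with vehicle. At 72 h it was at 170, 112, 142 and 109 TPM with dexamethasone and at 88.6, 58.2, 50.4 and 66.0 TPM with vehicle. At both times every treated library was above every vehicle library. Id1 rose 2.01-fold at 24 h (log2 difference 0.61, SE 0.13, limma adjusted p = 0.00154) and 2.02-fold at 72 h (0.72, SE 0.13, limma adjusted p = 0.000218), or 2.08-fold without the libraries numbered 1. The change of its response from 24 h to 72 h was 0.11 (95% confidence interval −0.27 to 0.49, limma adjusted p = 0.758). In order of mean level, dexamethasone 72 h, day 0 and dexamethasone 24 h overlapped as neighbours, and a gap separated them from vehicle 72 h, vehicle 24 h and day 7, which overlapped in turn.

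Id1 was highest in replicate 1 in 5 of the 6 groups, and Id3 likewise in 5, not all of them the same. Markers of cycling cells, which fell with Id1 and Id3 from day 0 to day 7, did not rise with them under dexamethasone at 24 h. None of the 8 was called, with a median difference of −0.47, and 1 was called lower after quantile normalisation and with the replicate block. Mki67, a proliferation marker, was at 0.403 ± 0.169 TPM with dexamethasone and 0.944 ± 0.896 TPM with vehicle. All 8 cycling markers were called higher at 72 h, and also when the replicate 1 libraries were left out. At that time Mki67 was at 7.21 ± 4.64 against 0.939 ± 0.651 TPM. Markers of some other cell types moved in the same comparisons, where 25.4% of all genes were called at 24 h and 30.3% at 72 h. Of 8 myotube markers none was called at 24 h, and 1 was higher and 1 lower at 72 h. Of 8 osteoblast markers 4 were tested, and none was higher and 1 lower at each time. Of 8 adipocyte markers 3 were tested, and 3 were higher at 24 h and 2 at 72 h, with a summed level over the list of 140 to 216 against 19.0 to 35.9 TPM at 24 h and 111 to 159 against 28.1 to 38.7 TPM at 72 h. Fabp4, a fatty acid carrier, and Cebpa, a transcription factor, were called at both times. Lep, the leptin gene, was listed at 0 throughout vehicle 24 h and both 72 h groups, and Cidec throughout vehicle 24 h. With dexamethasone 3 of the 8 adipocyte markers had a mean of at least 1 TPM at each time. Of 8 reserve or satellite cell markers, 1 was higher and 3 lower at 24 h (1 and 1 on the TPM scale, 1 and 6 with the replicate block). At 72 h 1 of these markers was higher and 6 were lower (1 and 5 without both replicate 1 libraries, 1 and 4 on the TPM scale). Their summed level was 825 to 960 against 884 to 1070 TPM at 24 h and 830 to 1040 against 920 to 1170 TPM at 72 h, and no marker was at 0 throughout a group. The part of these markers in the Id results was not tested.

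Id2, another inhibitor of the family, fell with differentiation and was not called with dexamethasone. Its libraries held 151, 112, 126 and 111 TPM at day 0 and 55.5, 78.6, 69.4 and 72.2 TPM at day 7, without overlap, a 1.82-fold fall (log2 difference −0.55, SE 0.11, limma adjusted p = 0.000152). After 24 h of dexamethasone it stood at 37.6, 52.5, 60.3 and 41.9 TPM beside 37.0, 61.0, 59.1 and 48.9 TPM with vehicle, and the groups overlapped (difference −0.13, 95% confidence interval −0.36 to 0.09, limma adjusted p = 0.388). At 72 h it was at 35.2, 37.9, 29.3 and 32.7 TPM with dexamethasone and 37.7, 52.6, 38.4 and 53.0 TPM with vehicle. Dexamethasone was lower in all 4 same-numbered pairs, but the groups overlapped by a narrow margin and the difference did not pass (−0.26, SE 0.11, limma adjusted p = 0.0807). Without both replicate 1 libraries at 72 h it was −0.33 (limma adjusted p = 0.057). It passed as a fall in 1 of 16 alternatives, without the replicate 1 library of every group (limma adjusted p = 0.0289, in a range from 0.0289 to 0.229). Day 0 was separated from the rest, and each later group overlapped its neighbour in the order day 7, vehicle 24 h, dexamethasone 24 h, vehicle 72 h and dexamethasone 72 h.

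Id4 was rare in every group. Its 4 libraries held 0.601, 0.853, 0.992 and 0.826 TPM with dexamethasone at 24 h and 0.124, 0.177, 0.150 and 0.140 TPM with vehicle. At 72 h they held 1.06, 0.566, 0.835 and 0.738 TPM with dexamethasone and 0.232, 0.195, 0.226 and 0.278 TPM with vehicle. No treated library reached down to a vehicle library at either time, and the log2 differences were 1.18 at 24 h (SE 0.18, limma adjusted p = 6.67e-05) and 0.94 at 72 h (SE 0.18, limma adjusted p = 0.000441). Without both replicate 1 libraries the 72 h difference of Id4 was 0.84 (limma adjusted p = 0.00411). Day 0 was at 0.233 ± 0.0906 and day 7 at 0.184 ± 0.163 TPM (difference −0.15, limma adjusted p = 0.486). Id4 reached the minimum of the filter in all 8 libraries with dexamethasone, and in 3 libraries of day 0, 1 of day 7, none of vehicle 24 h and 3 of vehicle 72 h. No fold is given, since the vehicle means were below 0.5 TPM.

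**Figure D2:**
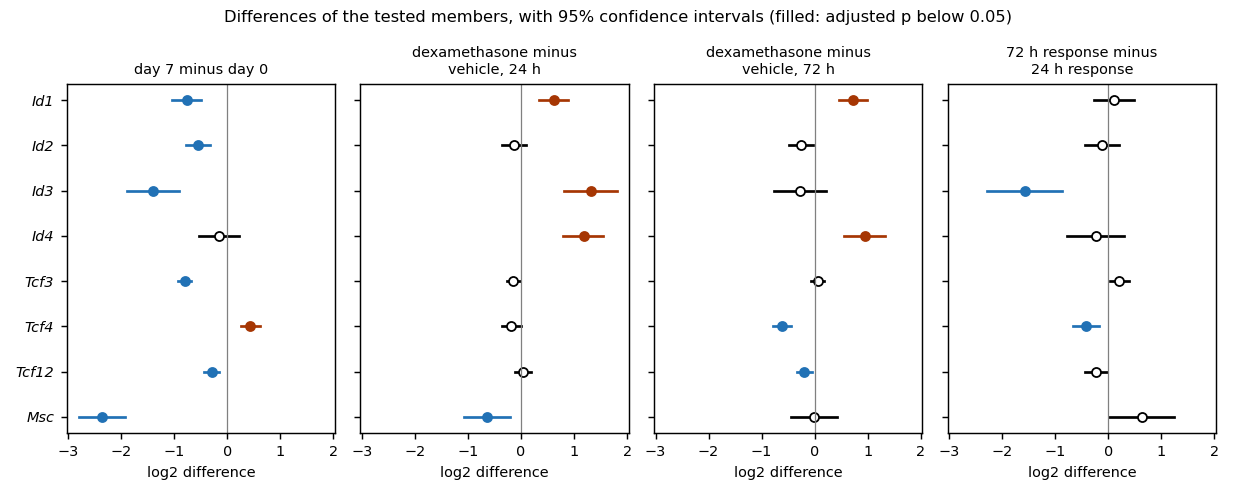
Log2 differences on the scale of the authors' table (horizontal axis) with 95% confidence intervals for the 8 tested members (vertical axis) in 4 comparisons; filled points have an adjusted p below 0.05, red for higher and blue for lower. Id1 and Id4 are higher with dexamethasone at both times, and Id3 at 24 h.

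Among the E proteins, the shared partners of muscle bHLH factors, Tcf3 fell with differentiation while Tcf4 rose. Tcf3 was at 99.1, 72.5, 95.8 and 82.4 TPM at day 0 and at 40.7, 33.3, 41.8 and 33.6 TPM at day 7, without overlap, a 2.34-fold fall (log2 difference −0.81, SE 0.06, limma adjusted p = 1.25e-10). From day 7 on its group means lay between 31.0 and 37.3 TPM, and all neighbours in that order overlapped. The difference between dexamethasone and vehicle was −0.15 at 24 h (95% confidence interval −0.27 to −0.03, limma adjusted p = 0.0684) and 0.06 at 72 h (−0.06 to 0.18, limma adjusted p = 0.49). The 24 h value passed after quantile normalisation (limma adjusted p = 0.0288) and without vehicle 24 h replicate 1 (0.0229), in a range from 0.0229 to 0.478 over 15 alternatives.

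Tcf4 held 46.3, 30.2, 53.5 and 48.2 TPM at day 0 and 64.4, 52.7, 74.5 and 64.3 TPM at day 7. The groups overlapped in 1 library each, and day 7 was higher in all 4 same-numbered pairs, a 1.44-fold rise (log2 difference 0.43, SE 0.08, limma adjusted p = 0.000123). At 24 h it was at 48.1, 41.0, 49.2 and 49.5 TPM with dexamethasone and 45.4, 66.4, 47.8 and 52.2 TPM with vehicle (difference −0.18, limma adjusted p = 0.114). Tcf4 was called lower at 24 h after quantile normalisation (−0.22, limma adjusted p = 0.0428), in 1 of 15 alternatives with adjusted p from 0.0428 to 0.494. At 72 h it was at 38.8, 38.7, 37.2 and 32.4 TPM with dexamethasone and 61.8, 91.1, 64.8 and 62.8 TPM with vehicle. All 4 treated libraries lay below all vehicle libraries at 72 h, a 1.91-fold fall (log2 difference −0.61, SE 0.08, limma adjusted p = 1.12e-05), or 2.02-fold without both replicate 1 libraries. The 72 h response was lower than the 24 h response (−0.43, SE 0.12, limma adjusted p = 0.0201). Over 24 alternatives the adjusted p of this change ran from 0.0109 to 0.0603, and the call was lost without vehicle 72 h replicate 2 (0.0501), without dexamethasone 72 h replicate 4 (0.0526) and without the replicate 1 library of every group (0.0603).

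Tcf12, which encodes the E protein HEB, was at 74.4, 51.8, 84.3 and 74.7 TPM at day 0 and at 48.4, 44.6, 56.0 and 49.8 TPM at day 7, lower in all 4 pairs with overlapping groups (1.43-fold, log2 difference −0.29, SE 0.07, limma adjusted p = 0.000858). With dexamethasone it was at 47.5 ± 3.25 TPM against 43.1 ± 8.25 TPM at 24 h (difference 0.04, limma adjusted p = 0.734) and at 43.2 ± 3.20 against 53.7 ± 8.26 TPM at 72 h. The 72 h difference passed narrowly (1.24-fold lower, log2 difference −0.19, SE 0.07, limma adjusted p = 0.0364), also without both replicate 1 libraries (−0.22, limma adjusted p = 0.0367). It kept its call in 7 of 16 alternatives, with limma adjusted p from 0.00954 to 0.133. The call was lost on the TPM scale (limma adjusted p = 0.123), with no filter (0.0638) and with the compared groups alone (0.0529). It was also lost without vehicle 72 h replicate 2 (0.133) or 3 (0.0868) or dexamethasone 72 h replicate 1 (0.0596), 2 (0.0621) or 4 (0.0876).

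Msc, the repressor known from undifferentiated muscle cells, had the largest fold change of the tested members with differentiation. Day 0 libraries held 18.6, 7.00, 15.4 and 15.6 TPM and day 7 libraries 2.03, 1.65, 0.709 and 1.29 TPM. The groups were far apart, a 9.98-fold fall from 14.2 ± 4.99 to 1.42 ± 0.564 TPM (log2 difference −2.36, SE 0.21, limma adjusted p = 2.63e-09). After 24 h of dexamethasone Msc was at 0.553, 0.412, 0.675 and 0.608 TPM, below all vehicle libraries at 1.32, 1.15, 0.802 and 1.15 TPM (1.97-fold, log2 difference −0.64, SE 0.21, limma adjusted p = 0.0291). This call held in 7 of 15 alternatives, with adjusted p from 0.0165 to 0.144. It was lost without dexamethasone 24 h replicate 1 (0.0501), 2 (0.0799) or 4 (0.0597) and without vehicle 24 h replicate 1 (0.0809) or 4 (0.0566). The call was also lost with log2(TPM + 1) (limma adjusted p = 0.144), with no filter (0.0537) and without the replicate 1 library of every group (0.0977). At 72 h the means were 0.787 ± 0.320 and 0.769 ± 0.0930 TPM (difference −0.01, limma adjusted p = 0.987). The change of its response from 24 h to 72 h was 0.63 (95% confidence interval 0.02 to 1.24, limma adjusted p = 0.177).

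Twist1, a mesenchymal repressor of MyoD, did not pass the filter in any group and was not tested. It was listed at 0 TPM in 1 day 0 library, in 3 day 7 libraries, in 2 libraries of each vehicle group and of dexamethasone at 24 h, and in 3 libraries of dexamethasone at 72 h. Its highest value was 0.0996 TPM, in vehicle 72 h replicate 2. Its relative Twist2, from the wider list of helix-loop-helix factors, was 7.28-fold lower at day 7 (3.82 ± 1.16 against 27.8 ± 2.20 TPM, limma adjusted p = 1.06e-11) and rose with dexamethasone to 14.1 ± 2.62 from 4.17 ± 0.687 TPM at 24 h (limma adjusted p = 7.48e-07). At 72 h Twist2 was still higher, at 10.6 ± 1.37 against 4.66 ± 0.450 TPM (limma adjusted p = 4.02e-05).

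The balance of inhibitor and partner transcripts was described by adding TPM over the Id genes and over the E protein genes, with no test. The Id sum was 681, 595, 538 and 495 TPM in the day 0 libraries and 252, 198, 176 and 183 TPM at day 7. It was 497, 460, 496 and 383 TPM with dexamethasone at 24 h and 171, 183, 202 and 177 TPM with vehicle. At 72 h it was 389, 188, 246 and 176 TPM with dexamethasone and 236, 212, 162 and 202 TPM with vehicle, and there the groups overlapped. The E protein sum was 203 ± 34.5 TPM at day 0 and 151 ± 17.2 at day 7. It was 125 ± 6.61 TPM with dexamethasone against 130 TPM (108 to 156) with vehicle at 24 h, and 115 ± 5.95 against 158 ± 22.4 at 72 h. The ratio of Id to E protein TPM was 2.91 ± 0.714 at day 0, 1.35 ± 0.279 at day 7, 3.67 ± 0.51 with dexamethasone and 1.43 ± 0.218 with vehicle at 24 h, and 2.18 ± 0.900 with dexamethasone and 1.31 ± 0.297 with vehicle at 72 h. Without both replicate 1 libraries the 72 h ratios were 1.74 ± 0.307 and 1.18 ± 0.170. Transcript ratios say nothing of protein levels.

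The make-up of the Id sum also moved. Id3 made up 56.9% of it at day 0, 39.7% at day 7, 65.1% with dexamethasone at 24 h and 32.8% at 72 h. Id1 made up 21.4%, 26.2%, 24.3% and 53.3% in the same groups, so that by group means it was the largest part with dexamethasone at 72 h. In replicate 1 of that group Id3 was higher than Id1 (183 against 170 TPM). Without that library the means were 121 TPM for Id1 and 48.4 TPM for Id3. In vehicle at 24 h and 72 h Id3 made up 41.5% and 45.1%, and Id1 30.3% and 32.4%. Id2 made up 34.1% at day 7, 28.1% and 22.4% in vehicle at 24 h and 72 h, and 10.5% and 13.5% with dexamethasone at these times; Id4 made up at most 0.321%. Among the E proteins Tcf3 made up 43.0% of the sum at day 0 and 24.7% at day 7, where Tcf4 had the largest part at 42.4%.

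**Figure D3:**
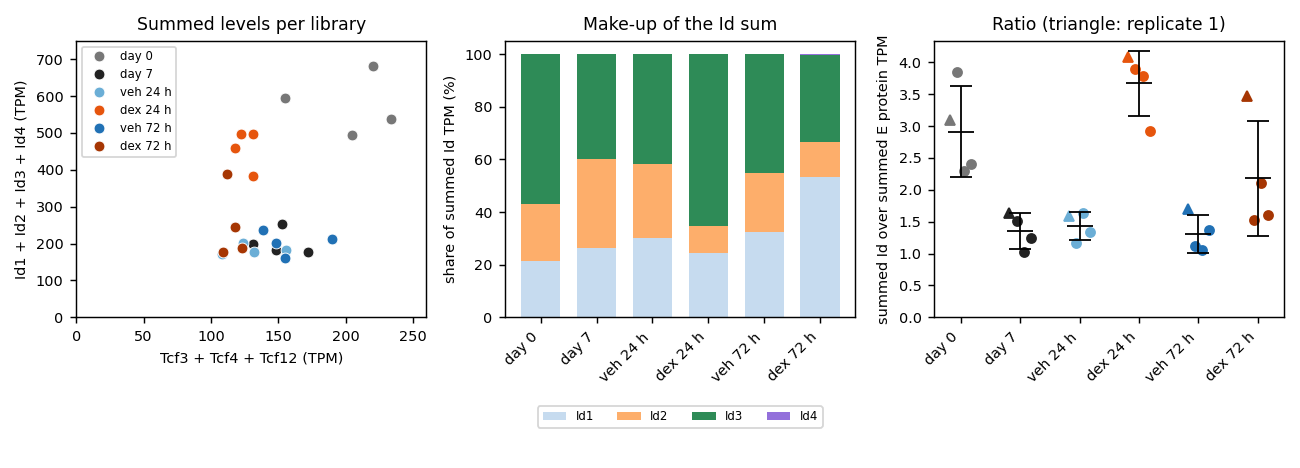
Left, summed Id TPM (vertical) against summed E protein TPM (horizontal) for each of the 24 libraries; centre, share of each Id gene in the summed Id TPM of each group (%); right, ratio of the sums per library, with replicate 1 as triangles and mean ± SD. The ratio is 2.93 to 4.09 with dexamethasone at 24 h and 1.17 to 1.63 with vehicle.

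The myogenic bHLH factors, which pair with the E proteins, did not follow 1 pattern. Of the 4, Myog rose and Myf5 fell from day 0 to day 7, where 60.3% of all genes were called. With dexamethasone Myf5 and Myf6 were called higher at both times and none lower, also without both replicate 1 libraries. Of all genes 25.4% were called at 24 h and 30.3% at 72 h. Myf5, a factor of committed myoblasts, was at 44.0 ± 19.3 TPM at day 0, 11.7 ± 6.12 at day 7, and 57.1 ± 5.14 with dexamethasone against 8.21 ± 2.72 with vehicle at 24 h (limma adjusted p = 8.02e-07). At 72 h Myf5 was at 64.8 ± 10.3 against 10.8 ± 4.75 TPM (limma adjusted p = 1.14e-06). Myf6, a factor of mature fibres, was at 7.73 ± 5.38 against 0.935 ± 0.906 TPM at 24 h. At 72 h it was at 15.8 ± 4.93 against 1.89 ± 2.22 TPM (limma adjusted p = 0.000151). Replicate 1 held the highest Myf6 of these groups, at 15.4 and 2.17 TPM at 24 h and 22.4 and 5.14 TPM at 72 h. Myod1 was at 157 ± 12.5 against 137 ± 8.60 TPM at 24 h and at 122 ± 17.1 against 142 ± 14.7 TPM at 72 h, without a call (limma adjusted p = 0.574 and 0.199).

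Genes listed here as muscle E-box targets were counted next, and binding at E-boxes was not measured. All 18 of the list were higher at day 7 than at day 0, where 60.3% of all tested genes were called (30.5% higher). The median difference was 2.30, beside 0.01 over all genes. Myl4, an embryonic light chain, Tnni1, the slow troponin I, and Mymx, a fusion peptide, had the largest rises. Under dexamethasone at 24 h, 1 of 18 was higher and none lower, where 25.4% of all genes were called, and the median was −0.02. The 1 was Rb1, the retinoblastoma gene (44.6 ± 7.55 against 31.7 ± 2.97 TPM, limma adjusted p = 0.0417). On the TPM scale 2 were higher and none lower, and a fit blocked on replicate number called 3 and 1. A link between these counts and the Id sum was not tested. At 72 h 4 of the list were higher and 2 lower, where 30.3% of all genes were called (5 and 1 without both replicate 1 libraries, 2 and 2 on the TPM scale). Tnnt2, the cardiac troponin T of embryonic muscle, rose to 1600 ± 247 from 890 ± 144 TPM (limma adjusted p = 3.68e-05), and Myh3, embryonic myosin, was lower at 76.8 ± 7.39 against 128 ± 15.3 TPM (limma adjusted p = 0.00601).

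Genes of the BMP pathway, a well known upstream signal of Id transcription, were taken from a list of 37, of which 34 were tested. From day 0 to day 7, 13 rose and 11 fell (10 and 9 of 32 on the TPM scale), where 60.3% of all tested genes were called. The median was 0.23 beside 0.01 over all genes. The receptor-regulated SMAD gene Smad9 was 3.97-fold lower at day 7 (0.539 ± 0.0540 against 2.14 ± 0.566 TPM, limma adjusted p = 1.01e-06) and the inhibitory SMAD genes Smad6 and Smad7, themselves known BMP and TGF-beta targets, were 2.42-fold and 1.65-fold lower. The binding protein Fst, which captures activins and some BMPs, was 17.9-fold higher, the co-receptor Hjv 26.2-fold higher, and the ligand Gdf6 was at 3.02 ± 1.02 against 0.0422 ± 0.0193 TPM.

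With dexamethasone at 24 h, 10 BMP pathway genes rose and 6 fell (8 and 3 of 32 on the TPM scale). Of all tested genes 25.4% were called (13.2% higher, 12.2% lower). The median was 0.20 beside −0.01 over all genes. The BMP antagonist Grem1 was 20.7 ± 6.03 against 135 ± 65.3 TPM (limma adjusted p = 2.16e-05), and the receptor gene Bmpr1b 0.674 ± 0.123 against 1.74 ± 0.156 TPM (limma adjusted p = 0.000347). The antagonist Fst moved the other way, to 277 ± 88.1 from 141 ± 25.4 TPM (limma adjusted p = 0.0135). Among ligands, Bmp4 fell to 20.0 ± 6.11 from 56.7 ± 15.1 TPM (limma adjusted p = 0.000626), and Gdf6 rose to 6.92 ± 0.953 from 2.50 ± 1.07 TPM (limma adjusted p = 0.000713). Smad9 rose to 1.59 ± 0.164 from 0.464 ± 0.132 TPM (limma adjusted p = 3.81e-05). Smad6 (6.82 ± 0.689 against 4.85 ± 1.15 TPM) and Smad7 (7.44 ± 0.672 against 7.69 ± 1.13 TPM) were not called. A link between the BMP pathway genes and the Id genes was not tested in any comparison.

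At 72 h 3 BMP pathway genes rose and 14 fell, or 4 and 14 without both replicate 1 libraries and 1 and 12 of 32 on the TPM scale. Of all tested genes 30.3% were called (15.2% higher, 15.2% lower). The median was −0.17 beside 0.01 over all genes. Bmp4 stayed lower, at 12.8 ± 8.80 against 79.7 ± 26.0 TPM (limma adjusted p = 1.69e-06), and Gdf6 stayed higher, at 11.2 ± 2.80 against 3.08 ± 1.28 TPM (limma adjusted p = 1.7e-05). The secreted antagonist Chrdl1 fell to 11.4 ± 12.8 from 123 ± 58.0 TPM (limma adjusted p = 2.25e-05), and Fstl1 to 148 ± 100.0 from 591 ± 193 TPM (limma adjusted p = 1.14e-05). Smad9 was at 0.850 ± 0.390 against 0.757 ± 0.143 TPM and was not called (limma adjusted p = 0.793). Smad6 was lower, at 3.09 ± 1.80 against 6.98 ± 1.46 TPM (limma adjusted p = 0.000633), as was Smad7, at 7.44 ± 1.5 against 10.1 ± 1.14 TPM (limma adjusted p = 0.0216). Over the list, 1 response was higher and 11 were lower at 72 h than at 24 h, where 11.3% of all genes were called. Fibroblast markers moved alongside. At 24 h 4 of 8 were lower and 1 higher (2 and 1 on the TPM scale, 7 and 1 with the replicate block), and at 72 h 7 were lower and none higher. Their summed level was 1440 to 1680 TPM against 2290 to 3640 at 24 h and 322 to 1260 TPM against 2540 to 3860 at 72 h. No fibroblast marker was at 0 throughout a group, and the part of these markers in the result was not tested.

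**Figure D4:**
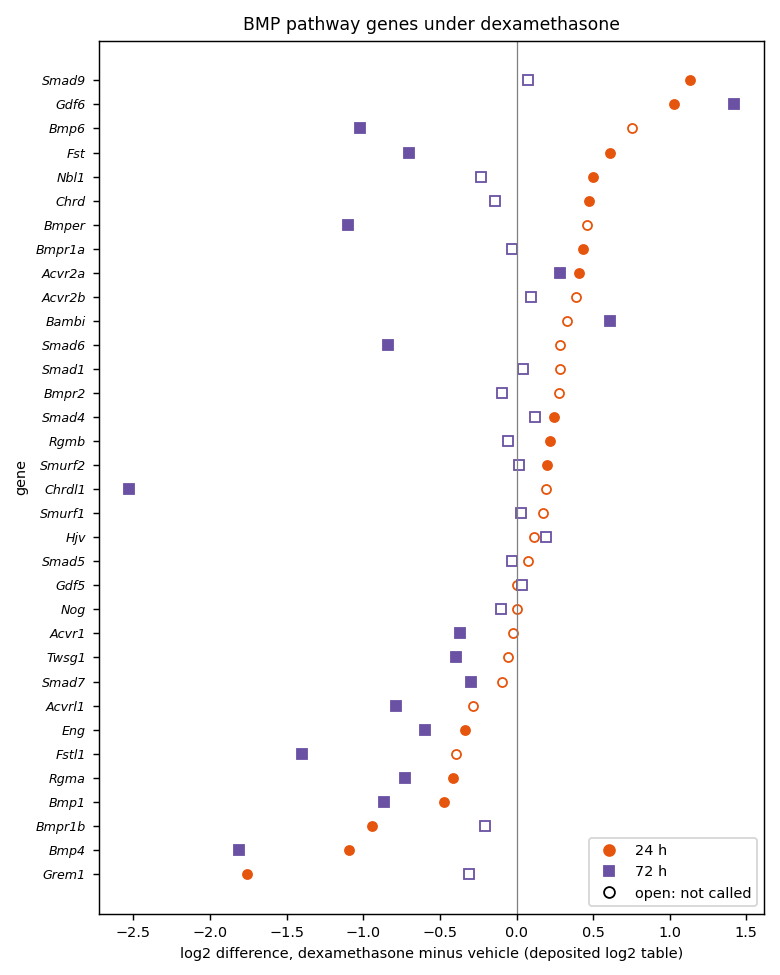
Log2 difference between dexamethasone and vehicle on the scale of the authors' table (horizontal axis) for the 34 tested BMP pathway genes (vertical axis, ordered by the 24 h value); circles are 24 h, squares 72 h, and filled symbols have an adjusted p below 0.05. At 24 h 10 genes are called higher and 6 lower, where 25.4% of all genes were called. At 72 h it is 3 and 14, where 30.3% were called.

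The wider list of helix-loop-helix and E-box binding factors held 30 genes, of which 19 were tested. From day 0 to day 7, 6 rose and 7 fell, or 8 and 7 after quantile normalisation, where 60.3% of all genes were called. Bhlhe40, a repressor of the clock and of stress responses, rose 3.42-fold, Hes6, which favours differentiation, 3.14-fold, and Mdfi, which retains myogenic factors in the cytoplasm, 3.74-fold. The Notch target Hey1 and the zinc finger repressor Snai2, which competes for E-boxes, were 3.18-fold and 2.46-fold lower. With dexamethasone at 24 h 4 rose and 5 fell, with a median of 0.04, where 25.4% of all genes were called. At 72 h 2 rose and 12 fell, with a median of −0.44, where 30.3% of all genes were called, and the counts were also 2 and 12 without both replicate 1 libraries. The 2 that rose at 72 h were Twist2 and Myc, a growth factor target (41.8 ± 4.97 against 20.4 ± 4.03 TPM, limma adjusted p = 6.23e-06). The Notch target Heyl fell at both times, to 4.38 ± 1.06 from 11.1 ± 3.10 TPM at 24 h (limma adjusted p = 0.00343) and to 1.47 ± 1.26 from 9.60 ± 1.5 TPM at 72 h (limma adjusted p = 3.95e-06). Atoh8 rose at 24 h, to 19.8 ± 4.00 from 10.6 ± 3.19 TPM (limma adjusted p = 0.04), and was lower at 72 h, at 6.20 ± 4.42 against 10.6 ± 2.20 TPM (limma adjusted p = 0.0258).

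The myotube groups without dexamethasone were compared last. No member was called by limma between vehicle 24 h and day 7, where 0.209% of all genes were called (0.0984% higher, 0.111% lower), and 2 members had an unadjusted p below 0.05. None was called between vehicle 72 h and vehicle 24 h, against 4.36% of all genes (2.67% higher, 1.69% lower), and 1 had an unadjusted p below 0.05; with limma on the TPM scale the count was also 0 in both. Id2 was at 68.9 ± 9.73 TPM at day 7, 51.5 ± 11.0 in vehicle 24 h (limma adjusted p = 0.198) and 45.4 ± 8.52 in vehicle 72 h. Tcf4 was at 64.0 ± 8.93, 52.9 ± 9.40 and 70.1 ± 14.0 TPM in the same groups, so that the 72 h fall with dexamethasone was measured against the highest vehicle mean.

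For members whose group means spanned at least 2-fold and reached 1 TPM, the genes with the most similar profile over the 24 libraries were found by the root mean square difference of log2(TPM + 0.1), each gene centred on its own mean, among 13152 other genes. Nearest to Id3 were Smad9 (0.54) and the homeobox gene Dlx2 (0.55), and nearest to Id1 were the nuclear receptor gene Nr2f2 (0.21) and Agfg2 (0.27). Nearest to Id2 were Tst (0.22) and Apobec3 (0.24), to Tcf3 Trp53 (0.12) and Stx2 (0.12), and to Msc the matrix crosslinking enzyme gene Loxl2 (0.50) and the cytokine receptor gene Il2rg (0.56). The libraries share their groups, so these values describe likeness of profile only.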

How the data were processed

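The 24 libraries came from a poly(A)-selecting, stranded kit, per the labels' protocols. Build GRCm39 is named in the submitters' processing notes, beside kallisto 0.51.1, DESeq and Salmon, whose roles are not given there. The authors deposited 1 table of log2 values, normalised between libraries by a method not given in the sources used here, and 1 table of TPM; neither keeps depth. Rows were joined by Ensembl identifier, and symbols were matched for 48291 of 48544 genes. Genes with a linear value of at least 10 in at least 4 libraries were tested on the log2 table with limma 3.58.1 in R 4.3.3 (trend, 1 mean per group, all 24 libraries, Benjamini-Hochberg adjustment over 16257 genes); the fit was tested on simulated data. Folds are given where the lower mean was at least 0.5 TPM. The design had left the scale of the normalised table open, and the log2 branch applied. Members and lists were chosen with earlier results of these data known, and 1 gene of the BMP list is not reported here. Named genes were all members, the 4 myogenic bHLH factors, the 2 genes nearest in profile to a member and, per list and comparison, up to 3 called genes in each direction with the largest differences and a mean of at least 1 TPM. Atoh8 at 72 h, Mki67, Fkbp5, Fabp4, Cebpa, Lep, Cidec, Smad6, Smad7 and Smad9 in the dexamethasone comparisons that the rule did not cover were added after their values were seen. Same-numbered libraries deviated together in some pairs of groups (correlation 0.145 to 0.212 for day 0 and day 7, 0.201 to 0.391 for 24 h, 0.117 to 0.338 for 72 h), so the replicate number was tried as a block. In other pairs they did not do so throughout. The correlation was −0.249 to 0.565 between the vehicle groups, −0.176 to 0.385 between the dexamethasone groups and −0.0142 to 0.492 between vehicle 24 h and day 7. Alternatives also covered TPM with pseudocounts of 0.1 and 1, no filter, quantile normalisation, the compared groups alone, and leaving out libraries.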

Additional observations from a re-analysis of the deposited data

Results flagged for a closer look

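Within groups of 4, the gap of an extreme library to its nearest neighbour was compared with the whole range for 48 sets of values, and chance alone puts about 1 in 20 past the 95% limit. There were 4 such values, in 3 libraries. Day 7 replicate 1 was high for Id1, at 67.7 TPM where the others averaged 48.0, and for Id3, at 129 TPM where the others averaged 64.0. Tcf4 was low in dexamethasone 24 h replicate 2, at 41.0 TPM against a mean of 48.9 in the others, and high in vehicle 72 h replicate 2, at 91.1 TPM against 63.1.

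The response to dexamethasone differed between 72 h and 24 h, by the test of the difference itself, for Id3 (−1.58 on the log2 scale) and for Tcf4 (−0.43). For Id3 the groups at 24 h did not overlap; for Tcf4 those at 72 h did not.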

How the results depend on the processing

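Of 808 member values under the alternatives, 756 kept direction and side of the threshold, 20 lost a call, 8 gained one and 24 changed sign. All sign changes were in differences that were not called, and their cause was not tested. For Tcf12 at 24 h the log2 difference was −0.001755 without every group's replicate 1 and −0.008731 to 0.07863 with each library left out in turn. For Msc at 72 h it was 0.0002328 with log2(TPM + 1), 0.04393 after quantile normalisation, 0.1156 without the replicate 1 libraries of 72 h or of all groups, and −0.1624 to 0.07949 with each library left out. Between vehicle 24 h and day 7, Id3 was at −0.01308 and −0.01352 on the TPM scale with pseudocounts of 0.1 and 1, and leaving out each library moved Id3 from −0.0983 to 0.176 and Id4 from −0.1578 to 0.1766. Between the vehicle groups, Tcf3 was at 0.00876 and 0.008268 on the TPM scale, and Id1 at −0.06148 and −0.01775 without the replicate 1 libraries of 72 h and of all groups, with −0.06148 to 0.1368 with each library left out.

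The count of members whose response changed from 24 h to 72 h was 1 without every group's replicate 1 and 1 to 3 with each library left out. Genes called between vehicle 24 h and day 7 numbered 34 in the reported fit, 4 and 5 on the TPM scale with pseudocounts of 0.1 and 1, 4 without a filter, 0 with the compared groups alone (limma) and 0 without replicate 1, 109 with the replicate block and 0 to 328 with each library left out. Between the vehicle groups 709 became 270, 264, 94, 4, 5 and 1067 in the same order, 380 without the replicate 1 libraries of 72 h, and 2 to 1751 with each library left out. With dexamethasone at 24 h leaving out each library moved the count of 4134 to between 2706 and 4358, the lowest without dexamethasone 24 h replicate 4. The replicate block changed no member call, and no member was called in the vehicle comparisons under any alternative. The TPM scale moved the median of all genes by over 0.1 for the change of response (to −0.124) and between the vehicle groups (to 0.134 and 0.107). Depth is unknown, which limits what can be said of Id4, Msc and Twist1, all near or below 1 TPM in most groups.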
